A study of Homo sapiens with 2 samples.

Results

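The Toll-like receptors (TLRs) and NOD-like receptors (NLRs) of innate immunity were described in RNA-seq data from the human cell line HAL-01, whose cell type the labels give as pre-B acute lymphoblastic leukaemia. The study has 2 libraries. The first was of an AG culture kept for 24 h with 0.8 mM 1,5-AG, which is 1,5-anhydroglucitol, a polyol close to glucose in structure. The other was of a Control culture, and the sources used here do not say how it was treated. The genes were chosen by symbol. They were the genes named TLR, NLRP or NLRC plus a number, together with NOD1, NOD2, NAIP, PYCARD and CASP1. GENCODE 29 holds 32 such genes. All are called sensor genes or sensors below, also CASP1, which encodes a protease and not a receptor. Of these 32 genes, 16 had a value in at least 1 of the 2 libraries, out of 16145 genes with a value in all. The remaining 16, among them NLRP3, NLRP1, NLRC5, NAIP, PYCARD, TLR3, TLR6 and TLR9, were not analysed here. A gene without a value is not read as unexpressed.

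TLRs are membrane receptors whose leucine-rich repeats meet microbial molecules outside the cell or in endosomes, and whose TIR domain recruits the adaptors that switch on NF-kB and interferon regulatory factors. NLRs are their cytosolic counterparts. NOD1 and NOD2 bind fragments of bacterial peptidoglycan and signal through the kinase RIPK2, while NLRC4, together with NAIP, responds to flagellin and secretion system proteins and assembles an inflammasome that activates caspase-1. Monocytes and neutrophils are the blood cells best known for TLR2, TLR4, NOD2, NLRC4 and NLRP12, whereas B cells are better known for TLR9, TLR10 and TLR1.

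The values are FPKM, fragment numbers divided by gene length and by library size. The length implied for the sensors was near that of all annotated exons together, such as 13277 bases for TLR4 and 3788 for NLRC4. It need not be the length of the transcript expressed. Comparisons of level between genes therefore carry an error that counting intervals do not cover, while the ratio of 1 gene between the libraries does not use its length. The FPKM steps of low genes implied totals of 14857372 fragments in AG and 16240451 in Control, and they gave the whole number of fragments behind each of the 16 sensor genes. With 1 library per group, no difference below has a replicate check and no test between the conditions is possible. The intervals given are exact 95% Poisson intervals for a level and exact 95% Clopper-Pearson intervals for a ratio. They compare these 2 libraries and cover counting error only, since fragments are not independent molecules. They were not adjusted for the number of genes.

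The lineage markers did not follow the label. Of 13 markers of B cell precursors 9 had a value. Among them CD79A, which relays B cell receptor signals, had 0.351 FPKM in AG and 0.275 FPKM in Control, and the B lineage factor EBF1 had 0.0531 FPKM in AG and 0.194 FPKM in Control. The 5 monocyte and macrophage markers with a value in both libraries, of 12 on the list, summed to 245 FPKM in AG and 144 FPKM in Control. Most of this came from LYZ, at 104 FPKM in AG and 75.6 FPKM in Control, and S100A9, at 131 and 66.3 FPKM. S100A12 had 0.139 FPKM in AG and 0.127 FPKM in Control, from 1 fragment each. CD68 had a value only in AG, at 0.0622 FPKM from 2 fragments, while CD14 and CSF1R were not analysed here. The 3 granulocyte precursor markers with a value in both, of 7, summed to 237 FPKM in AG and 795 FPKM in Control. That sum was mostly CTSG, at 194 FPKM in AG and 743 FPKM in Control, while ELANE had 41.8 FPKM in AG and 47.6 FPKM in Control. For this reason the cells are called HAL-01 only as their label does. In a bulk library, a larger share of cells of a type cannot be told apart from more RNA of a gene per cell.

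NLRC4 and NLRP12 were several-fold higher in the AG library, and the other sensors averaging 1 FPKM or more differed by less than 1.5-fold. Toll-like receptor 2 and caspase-1 were the most abundant sensor genes in both libraries. TLR4, the lipopolysaccharide receptor, was moderately higher in AG, and NOD2 differed little. TLR1 and TLR10, at low levels, also had higher values in AG.

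NLRC4 (ENSG00000091106), the inflammasome sensor of flagellin, is a protein-coding gene on the minus strand of chromosome 2, from 32224453 to 32265854 in the GRCh38 coordinates of GENCODE 29. It had 5.12 FPKM in AG (4.54 to 5.74, 288 fragments), against 0.683 FPKM in Control (0.492 to 0.923, 42 fragments). The AG level was thus well above the Control level and the counting intervals did not overlap. The ratio was 7.50 (5.41 to 10.6). On the log2(FPKM + 1) scale, on which the pseudocount understates the change of low genes, the difference was 1.86. This placed NLRC4 at position 9 from the top of 5528 genes averaging 1 FPKM or more. No exon of another GENCODE 29 gene overlapped its exons.

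NLRP12 (ENSG00000142405), an NLR of monocytes and granulocytes known as a brake on NF-kB signalling, is a protein-coding gene on the minus strand of chromosome 19, from 53793603 to 53824394. It had 3.13 FPKM in AG (2.74 to 3.56, 230 fragments), against 0.386 FPKM in Control (0.262 to 0.547, 31 fragments). As for NLRC4, the intervals of the 2 libraries lay far apart. The ratio was 8.11 (5.56 to 12.2) and the log2 difference was 1.57, at position 15 of the same 5528 genes. NLRC4 and NLRP12 were among the 23 genes, or 0.416%, whose FPKM ratio was at least 5, a limit chosen after the values were seen. These genes also included ITGAM of the monocyte marker list, the integrin CD11b, which had 8.30 FPKM in AG and 1.55 FPKM in Control. This marker and the summed level of its list were higher in AG together with NLRC4 and NLRP12, and their part in the result was not tested.

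TLR4 (ENSG00000136869) lies on the plus strand of chromosome 9, from 117704175 to 117724730, and encodes the receptor that detects lipopolysaccharide together with the co-receptor MD-2. It had 5.54 FPKM in AG (5.22 to 5.88, 1093 fragments), against 4.04 FPKM in Control (3.78 to 4.32, 872 fragments). The intervals did not overlap, but the ratio of 1.37 (1.25 to 1.5) was far smaller than those of NLRC4 and NLRP12. The log2 difference was 0.37, which 7.16% of the 5528 genes exceeded. A protein-coding gene of the same strand, AL160272.2, shares 558 bases with the exons of TLR4, or 4.20% of them, and reads there cannot be told apart.

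NOD2 (ENSG00000167207), the sensor of muramyl dipeptide, lies on the plus strand of chromosome 16, from 50693588 to 50734041. It had 1.14 FPKM in AG (0.939 to 1.36, 116 fragments), against 0.994 FPKM in Control (0.818 to 1.2, 111 fragments). The intervals overlapped widely. The ratio was 1.14 (0.873 to 1.5), so a difference in either direction was not detectable at this depth, and a ratio above 1.5 lay outside the counting interval. An antisense gene without a value here overlaps 2.94% of its exon bases.

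**Figure D1:**
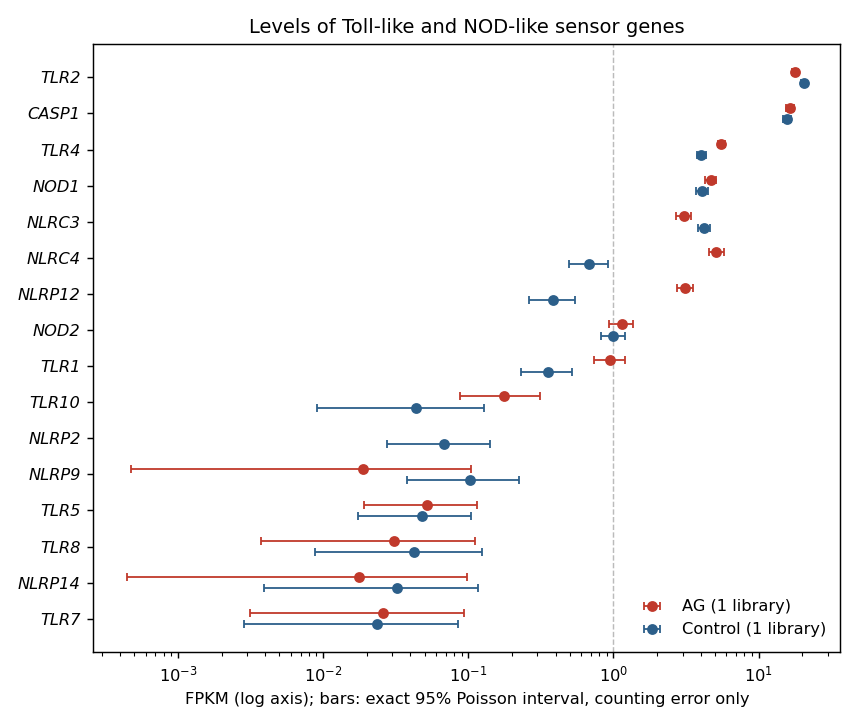
FPKM of each sensor gene (log axis) in the AG library (red) and the Control library (blue), 1 library per group, with exact 95% Poisson intervals that cover counting error only; the dashed line is 1 FPKM. NLRC4 and NLRP12 are the genes whose levels lie farthest apart among those above 1 FPKM in AG, at 5.12 and 3.13 FPKM in AG against 0.683 and 0.386 FPKM in Control, while TLR2 and CASP1 are highest in both.

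The promoters of these 4 genes are shown to set NLRC4 and NLRP12, which were several-fold higher in AG, beside TLR4, at a ratio of 1.37, and NOD2, at one of 1.14. Each sequence is the 250 bases before the most upstream RefSeq start in the GRCh38.p14 table, 5′ to 3′ on the strand of the gene, and capitals mark matches to the searched motifs. The NLRC4 stretch is chr2:32265744-32265993 on the minus strand, and that of NLRP12 is chr19:53824315-53824564 on the minus strand. The TLR4 stretch is chr9:117704153-117704402 on the plus strand, and that of NOD2 is chr16:50696698-50696947 on the plus strand.
NLRC4: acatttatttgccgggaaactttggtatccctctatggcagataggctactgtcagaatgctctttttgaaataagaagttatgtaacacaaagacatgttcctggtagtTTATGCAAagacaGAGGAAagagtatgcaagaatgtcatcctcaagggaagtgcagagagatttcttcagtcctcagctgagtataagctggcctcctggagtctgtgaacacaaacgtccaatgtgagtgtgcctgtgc
NLRP12: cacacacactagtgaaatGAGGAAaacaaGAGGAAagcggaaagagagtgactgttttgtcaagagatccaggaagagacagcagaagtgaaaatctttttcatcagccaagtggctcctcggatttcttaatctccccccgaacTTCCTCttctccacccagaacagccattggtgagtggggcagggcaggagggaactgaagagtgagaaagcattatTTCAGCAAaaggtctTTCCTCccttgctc
TLR4: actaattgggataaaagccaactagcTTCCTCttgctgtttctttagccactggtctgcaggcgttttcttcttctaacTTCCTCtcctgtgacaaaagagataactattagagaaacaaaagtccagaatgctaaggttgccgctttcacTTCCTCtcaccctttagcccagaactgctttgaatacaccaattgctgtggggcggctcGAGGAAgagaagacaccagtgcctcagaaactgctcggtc
NOD2: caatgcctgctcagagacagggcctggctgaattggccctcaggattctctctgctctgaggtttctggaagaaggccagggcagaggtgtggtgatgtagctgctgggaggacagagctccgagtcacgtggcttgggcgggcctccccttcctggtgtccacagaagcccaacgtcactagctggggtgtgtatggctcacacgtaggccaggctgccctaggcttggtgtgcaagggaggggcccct

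The motifs were searched on both strands in windows of 300 bases, which run from 250 bases before a start to 50 bases after it. They were GAGGAA, the core bound by the myeloid factor PU.1, TTGCNNAA for C/EBP factors, TGANTCA for AP-1, a pair of GAAA copies with any 2 bases between them for interferon regulatory factors, AGGTCA, which nuclear receptors bind, and the NF-kB consensus. The NLRC4 window held 1 GAGGAA match starting at -127 from the start and 1 TTGCNNAA match at -140. The NLRP12 window held 4 GAGGAA matches, from -232 to -14, and 1 TTGCNNAA match at -29. The TLR4 window also held 4 GAGGAA matches, from -224 to -40, and no TTGCNNAA match. The first NOD2 window held none of the 6 motifs, and a second NOD2 start had 1 AGGTCA match. NLRC4 has 3 RefSeq starts, of which the second, whose window overlaps the first, held the same GAGGAA and 2 AGGTCA matches, and the third held no match. No matches overlapped in the 4 sequences shown. Of all 35116 windows in the table, 27.9% held GAGGAA, 10.5% TTGCNNAA, 7.71% TGANTCA, 3.57% the GAAA pair, 11.3% the NF-kB consensus and 13.8% AGGTCA. Windows were found for 12 of the 16 sensor genes. GAGGAA was in 3 of these 12 genes, TTGCNNAA in 3 (NLRC4, NLRP12 and TLR8), AGGTCA in 2 and the other motifs in 0. Counted in the same way, per gene over all its windows, GAGGAA was in 31.8% of the 27305 genes in the table, TTGCNNAA in 12.7% and AGGTCA in 16.5%. A match is a description of these letters and not a binding site.

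Among the surface Toll-like receptors, TLR2 was the most abundant sensor gene. TLR2, the receptor for bacterial lipoproteins, had 17.8 FPKM in AG (16.9 to 18.7, 1528 fragments), against 20.5 FPKM in Control (19.6 to 21.4, 1923 fragments). It was slightly lower in AG, with a ratio of 0.869 (0.812 to 0.929) and intervals that did not overlap. TLR1, which pairs with TLR2 to bind triacylated lipopeptides, had 0.949 FPKM in AG (64 fragments), against 0.353 FPKM in Control (26 fragments). TLR10, a relative in the same cluster on chromosome 4 that is best known from B cells, had 0.176 FPKM in AG (11 fragments), against 0.0438 FPKM in Control (3 fragments). Both of these were higher in AG, TLR1 with a ratio of 2.69 (1.68 to 4.42) and TLR10 with one of 4.01 (1.06 to 22.4), whose wide interval reflects its few fragments. The exons of TLR1 share 57 bases with those of TLR6 on the same strand, so reads there cannot be told apart. TLR5, the surface receptor of flagellin, had 0.0522 FPKM in AG and 0.0478 FPKM in Control, from 6 fragments in each library.

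The endosomal receptors with a value were near 0. TLR7 and TLR8, which sense single-stranded RNA, had 0.0259 and 0.0309 FPKM in AG, and 0.0237 and 0.0424 FPKM in Control. Each of these values rested on 2 or 3 fragments, so no difference was detectable at this depth. UNC93B1, which carries these receptors to endosomes, was by contrast abundant, with 42.4 FPKM in AG and 43.0 FPKM in Control.

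Among the other NLRs, NOD1 and NLRC3 had intermediate levels. NOD1 (ENSG00000106100), the sensor of diaminopimelic acid peptides, had 4.68 FPKM in AG (4.27 to 5.12), against 4.07 FPKM in Control (3.70 to 4.47). Its ratio of 1.15 (1.01 to 1.31) was close to 1, and an antisense gene without a value here overlaps 10.9% of its exon bases. NLRC3 (ENSG00000167984), known as an inhibitor of innate signalling, had 3.05 FPKM in AG (2.72 to 3.41), against 4.22 FPKM in Control (3.84 to 4.62). It had the lowest ratio among the sensors averaging 1 FPKM or more, at 0.723 (0.623 to 0.838), and the intervals of its levels did not overlap. NLRP9 and NLRP14, best known from germ cells and early embryos, rested on 1 fragment each in AG and on 6 and 2 fragments in Control. The gene EPN1 on the opposite strand overlaps 17.0% of the NLRP9 exon bases. NLRP2 had a value only in Control, at 0.0683 FPKM from 7 fragments, and was not compared.

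CASP1 (ENSG00000137752), the protease that the inflammasomes activate and that matures interleukin-1 beta, differed little. It had 16.5 FPKM in AG (15.5 to 17.6, 907 fragments), against 15.8 FPKM in Control (14.8 to 16.8, 948 fragments). The intervals overlapped and the ratio was 1.05 (0.954 to 1.15). CASP1 has close paralogs on chromosome 11, CARD16 and CARD17 among them, and its level is uncertain to the extent that reads were shared with them.

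**Figure D2:**
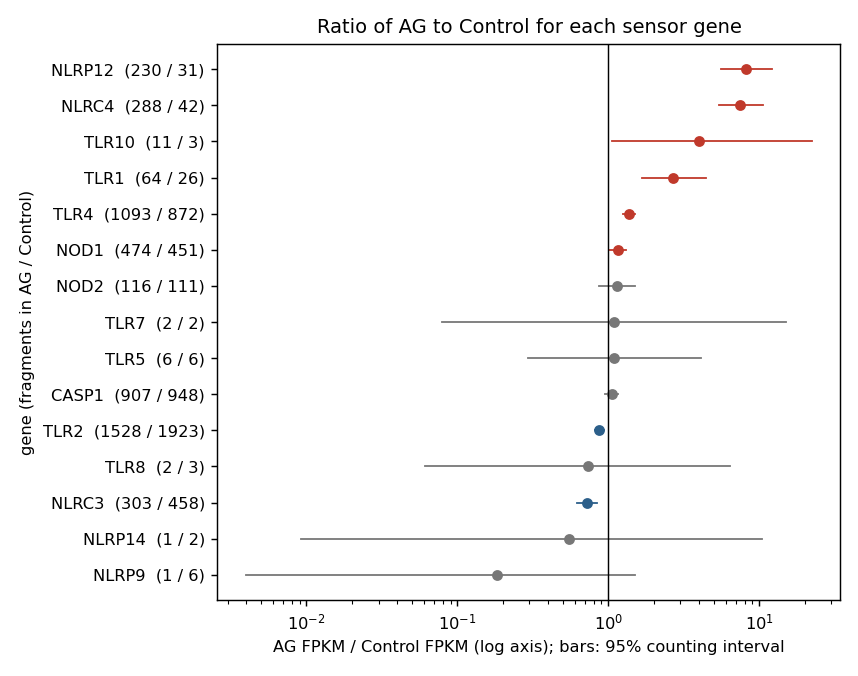
Ratio of AG FPKM to Control FPKM (log axis) for the 15 sensor genes with a value in both libraries, 1 library per group, with 95% Clopper-Pearson counting intervals; the fragments in AG and Control stand beside each name. Red marks an interval above 1, blue one below 1 and grey one that includes 1; NLRP12 and NLRC4 lie highest, at 8.11 and 7.50, and the genes with the fewest fragments have the widest intervals.

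Counted over the group, 15 of the 16 genes had a value in both libraries, and 8 of these averaged 1 FPKM or more. Of these 8, 2 were at least 1.5-fold higher in AG on the log2(FPKM + 1) scale, against 3.60% of the 5528 genes analysed in the same way. None of the 8 was at least 1.5-fold lower, against 3.33% of all genes. The median log2 difference of the 8 was 0.13, and that of all 5528 genes was -0.03. The filter has a part in this count: NLRC4, NLRP12 and NOD2 were under 1 FPKM in Control and reached the mean only through AG. Counts and medians over 8 genes describe these genes and are no sign of a shift of the whole family.

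By the counting interval, 6 of the 15 sensors had a ratio above 1, against 10.7% of 9813 genes with a value in both libraries and recovered fragments. They were NLRP12, NLRC4, TLR10, TLR1, TLR4 and NOD1. A further 2, TLR2 and NLRC3, had an interval below 1, against 14.2% of those genes, and 7 had an interval that included 1. Among genes averaging 1 FPKM or more, where more fragments narrow the intervals, 4 of 8 sensors lay above 1, against 16.7% of 5291 genes, and 2 of 8 lay below, against 22.9%. The filter has a part in this count too, since NLRC4 and NLRP12, both above 1, passed it only through AG. With a 99% interval, a setting chosen after seeing the data, 4 sensors remained above 1, namely NLRC4, NLRP12, TLR1 and TLR4, against 7.77% of the 9813 genes. Both TLR2 and NLRC3 remained below 1, against 9.86% of those genes.

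**Figure D3:**
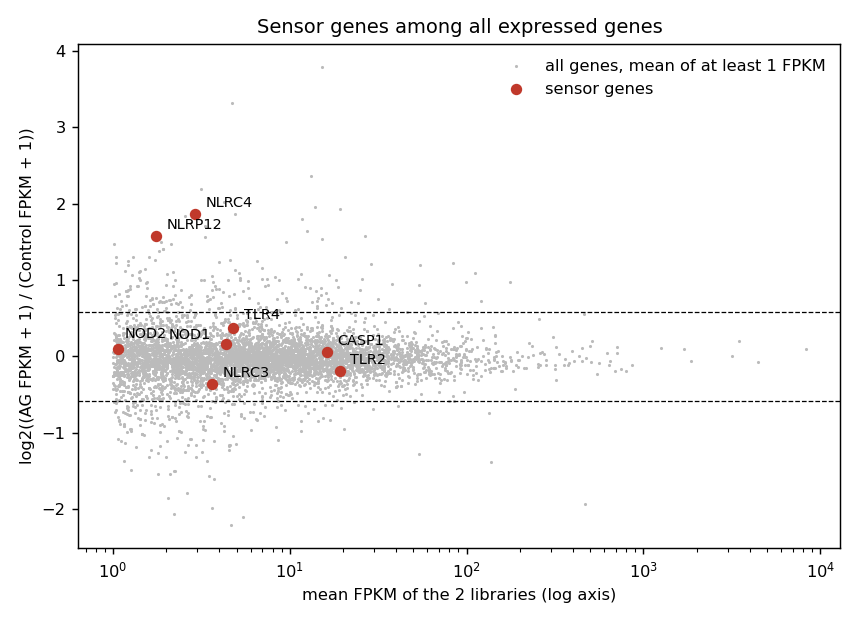
Difference on the log2(FPKM + 1) scale of AG against Control (vertical) by mean FPKM (horizontal, log axis) for the 5528 genes averaging 1 FPKM or more (grey) and the 8 sensors among them (red), 1 library per group; dashed lines mark 1.5-fold. NLRC4 at 1.86 and NLRP12 at 1.57 lie beyond the upper line, and the other 6 sensors lie between the lines.

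The order of the sensors by level differed between the libraries. In AG, the order from the top was TLR2, CASP1, TLR4, NLRC4, NOD1, NLRP12, NLRC3, NOD2, TLR1 and TLR10, among genes resting on 10 fragments or more. Neighbours that counting error did not separate there were TLR2 and CASP1, TLR4 and NLRC4, NLRC4 and NOD1, NLRP12 and NLRC3, and NOD2 and TLR1. In Control, the order was TLR2, CASP1, NLRC3, NOD1, TLR4, NOD2, NLRC4, NLRP12 and TLR1. There, NLRC3 and NOD1, NOD1 and TLR4, and NLRP12 and TLR1 were not separated. NLRC4 was thus not separated from TLR4 in AG, at a TLR4 to NLRC4 ratio of 1.08 (0.95 to 1.24), while in Control it stood below NOD2, at a NOD2 to NLRC4 ratio of 1.46 (1.01 to 2.13).

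The genes most like NLRC4, TLR4 and NOD2 were sought among protein-coding genes averaging 1 FPKM or more, by Euclidean distance on the log2(FPKM + 1) scale over the 2 libraries. For NLRC4 they were SLC37A2, a sugar phosphate transporter of myeloid cells, HMOX1, haem oxygenase, and S100P, a calcium-binding protein, at distances of 0.171, 0.237 and 0.378. Only these 3 genes lay within 0.5 of NLRC4. SLC37A2 had 4.58 FPKM in AG and 0.563 FPKM in Control. TLR4 had 551 genes within 0.5, led by CEP170, FAAP24 and ZBTB6, and NOD2 had 320, with ATP6V1E2 and MRPL45 among the nearest. With 2 libraries, such closeness describes a pair of values.

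The neighbours of NLRC4 on chromosome 2 had ratios near 1. SLC30A6, which lies 0.1 kb from NLRC4, had 7.93 FPKM in AG and 8.41 FPKM in Control, a ratio of 0.942. SPAST, at 66.8 kb, had a ratio of 1.13, BIRC6, at 91.2 kb, one of 1.04, and DPY30, at 184.6 kb, one of 0.822. SNX20, 12.2 kb from NOD2, had 8.02 FPKM in AG and 8.04 FPKM in Control. No protein-coding gene averaging 1 FPKM or more was analysed within 200 kb of NLRP12 or TLR4.

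The partners of the sensors were described by list. Of all 5528 genes, 93.1% were within 1.5-fold, so a list with most of its genes in that range does not stand apart. Of 11 accessory proteins and co-receptors, 5 averaged 1 FPKM or more, and all 5 were within 1.5-fold on the log2(FPKM + 1) scale, with a median of -0.02 (0.19 when scaled by the median of ratios, where CD180 also passed the filter). HSP90B1, the chaperone that folds these receptors, had 76.4 FPKM in AG and 60.5 FPKM in Control. LY86, the partner of the TLR4 relative CD180, had 8.95 FPKM in AG and 10.9 FPKM in Control. CD36, a scavenger receptor that assists TLR2, had 3.56 FPKM in AG and 2.17 FPKM in Control, and CNPY4, a regulator of TLR4 at the cell surface, had 2.80 FPKM in AG and 2.86 FPKM in Control. The plain ratio of CD36 was 1.64 (1.44 to 1.87). CD180, just under the filter, had 1.28 FPKM in AG and 0.717 FPKM in Control, a ratio of 1.79 (1.30 to 2.47). LY96, which encodes MD-2, had a value only in AG, at 0.602 FPKM from 5 fragments, and was named after its value was seen.

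Of 18 adaptors and kinases, 4 averaged 1 FPKM or more and all 4 were within 1.5-fold (median 0.15). IRAK1, the kinase recruited through MYD88, had 113 FPKM in AG and 90.2 FPKM in Control, a ratio of 1.25 (1.21 to 1.30). TAB2, an adaptor of the kinase TAK1, had 19.8 FPKM in AG and 16.9 FPKM in Control. TBK1 had 3.56 FPKM in AG and 3.29 FPKM in Control, and TAB3 had 2.65 FPKM in AG and 2.46 FPKM in Control. Of 11 negative regulators, all 4 averaging 1 FPKM or more were within 1.5-fold (median -0.03). IRAK3, which blocks signalling from MYD88 in monocytes, had 36.0 FPKM in AG and 35.9 FPKM in Control. TNIP1 had 16.3 FPKM in AG and 17.8 FPKM in Control, NFKBIA had 14.8 FPKM in AG and 13.0 FPKM in Control, and SIGIRR had 5.81 FPKM in AG and 6.08 FPKM in Control.

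Of 11 genes of NOD signalling, 4 averaged 1 FPKM or more and all 4 were within 1.5-fold (median 0.18). All 4 were above 0, as were all 4 of the adaptors and kinases, against 43.2% of the 5528 genes. The intervals of SLC15A4 and, among the adaptors and kinases, TAB3 included 1, and TBK1 had no interval. RIPK2, the kinase that NOD1 and NOD2 recruit, had 10.6 FPKM in AG and 8.86 FPKM in Control, a ratio of 1.2 (1.05 to 1.37). XIAP, the ligase that ubiquitinates RIPK2, had 7.76 FPKM in AG and 5.50 FPKM in Control, a ratio of 1.41 (1.29 to 1.55). CARD9, an adaptor of myeloid cells, had 30.7 FPKM in AG and 28.1 FPKM in Control, and SLC15A4, a transporter of muropeptides, had 4.05 FPKM in AG and 3.89 FPKM in Control. BIRC3, below the filter, had 0.125 FPKM in AG and 0.164 FPKM in Control, a ratio of 0.765 (0.358 to 1.59).

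Of 21 inflammasome partners, 6 averaged 1 FPKM or more. At 1.5-fold, 1 of these was lower, against 3.33% of the 5528 genes, and 0 were higher, against 3.60% (median -0.05). A count of 0 in 6 says nothing particular about these partners, and 1 lower gene is no sign of a shift of the list. The lower one was TXNIP, which binds NLRP3 and restrains glucose uptake, at 31.1 FPKM in AG and 76.8 FPKM in Control. NEK7, a cofactor of NLRP3, had 19.4 FPKM in AG and 20.4 FPKM in Control. CASP4, the sensor of cytosolic lipopolysaccharide, had 7.77 FPKM in AG and 8.53 FPKM in Control. MEFV, which encodes the inflammasome sensor pyrin, had 4.32 FPKM in AG and 3.13 FPKM in Control, a ratio of 1.38 (1.17 to 1.64). IL1B, a substrate of caspase-1 named after its value was seen, had 0.582 FPKM in AG from 26 fragments and 0.102 FPKM in Control from 5 fragments, a ratio of 5.68 (2.15 to 19).

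Of 9 genes linked to nucleic acid sensing in the cytosol, adaptors included, 3 averaged 1 FPKM or more. All 3 were within 1.5-fold (median -0.03). ADAR had 39.0 FPKM in AG and 37.6 FPKM in Control, MAVS, the mitochondrial adaptor of RIG-I, had 11.3 FPKM in AG and 12.5 FPKM in Control, a ratio of 0.904 (0.851 to 0.960), and EIF2AK2 had 7.56 FPKM in AG and 7.74 FPKM in Control. STING1, the adaptor of DNA sensing, was below the filter, with 0.617 FPKM in AG and 0.937 FPKM in Control, a ratio of 0.659 (0.443 to 0.971). Of 15 kinases and transcription factors that end these pathways, 9 averaged 1 FPKM or more. Of these 9, 1 was at least 1.5-fold higher, against 3.60% of the 5528 genes, and 8 were within 1.5-fold (median 0.06). The higher one was FOS, a subunit of AP-1, at 12.3 FPKM in AG and 6.78 FPKM in Control. IRF8, a factor of monocyte development, was the most abundant, with 196 FPKM in AG and 189 FPKM in Control, followed by IRF3 with 21.3 FPKM in AG and 23.1 FPKM in Control. RELB had 3.55 FPKM in AG and 3.14 FPKM in Control, and IRF1 had 2.18 FPKM in AG and 2.01 FPKM in Control. Of the 5 factors listed as regulators of sensor promoters in myeloid cells, IRF8 and CEBPB were analysed. CEBPB was higher, with 9.63 FPKM in AG and 4.25 FPKM in Control, a ratio of 2.26 (1.82 to 2.82).

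**Figure D4:**
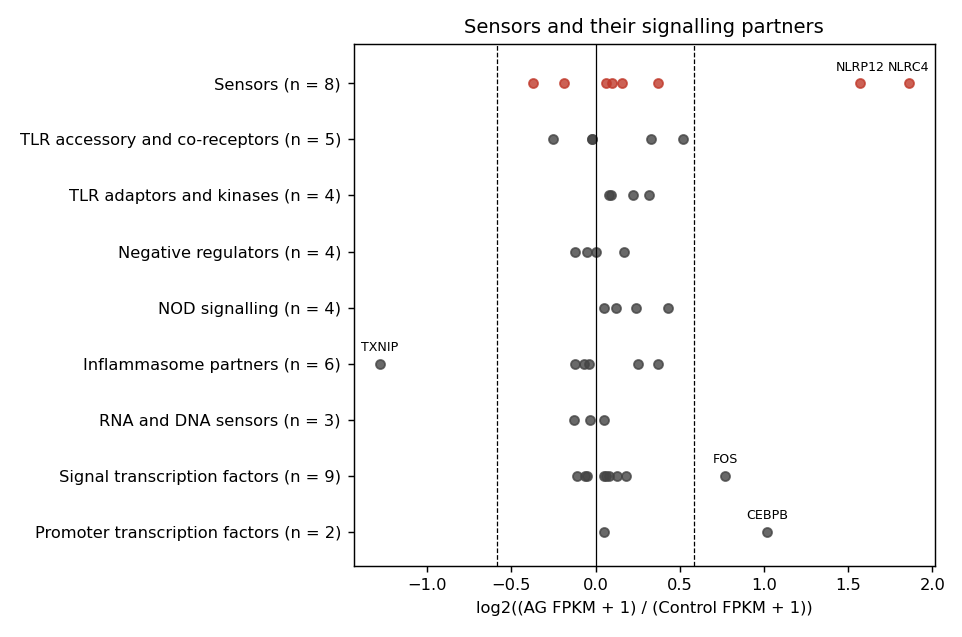
Difference on the log2(FPKM + 1) scale of AG against Control for the 8 sensors (red) and the members of each signalling list averaging 1 FPKM or more (dark grey), 1 point per gene and 1 library per group; dashed lines mark 1.5-fold. Beyond the lines lie NLRC4, NLRP12, FOS and CEBPB on the higher side and TXNIP on the lower side.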

How the data were processed

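Per the labels' protocols, Trizol was used for RNA and a stranded TruSeq mRNA kit for the libraries. The authors deposited FPKM per Ensembl gene. The submitters' processing notes name HISAT2, HTSeq, Cufflinks and Trimmomatic with the build hg38. Annotation release, strand setting and filters are not stated there. FPKM divides by the library total, so abundant genes shift all others.

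Genes were matched by Ensembl ID to GENCODE 29, which held 97.1% of 16145 IDs. For genes with a single transcript, FPKM times exon length gave whole fragments within 0.01 in 88.1% of 5259 genes of AG and 88.4% of 5315 genes of Control. For other genes, the integer exon length nearest to GENCODE 29 at which the values were whole was taken, which gave fragments for 93.0% of the 10548 genes listed in both libraries. Genes called expressed had a mean of at least 1 FPKM. The difference was log2((AG FPKM + 1)/(Control FPKM + 1)), and 1.5-fold on that scale counted as higher or lower. With 1 library per group no test and no count model was used. The steps were tested on simulated data.

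The members and lists were chosen with earlier results of these data known. Named were all sensors with at least 10 fragments, from each list the 2 expressed genes at either end by level, and any list gene at least 1.5-fold apart. The values of some genes that the rules name are not given. Promoter sequences are from RefSeq (GRCh38.p14). Protein sequences were not used here. The alternatives were pseudocounts of 0.1 and 5 FPKM, filters on the mean, scaling by the median of ratios or to a common total, a threshold of 2-fold and, added after seeing the data, a 99% interval. Computation was in Python 3.11.15 with pandas 2.3.3, numpy 2.4.6 and scipy 1.17.1, and plots were drawn with matplotlib 3.10.9.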

Additional observations from a re-analysis of the deposited data

How the results depend on the processing

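NLRC4 and NLRP12 were at least 1.5-fold higher in AG with pseudocounts of 0.1 and 5 FPKM, without a filter on low values, under both rescalings and at a 2-fold threshold. Their log2 differences moved with the pseudocount, to 2.74 and 2.73 at 0.1 FPKM and to 0.83 and 0.59 at 5 FPKM, since both are low in Control. Among genes averaging 5 FPKM or more, only TLR2 and CASP1 remained, so 0 sensors were higher and their median was -0.0662. Over all genes, 199 were higher and 184 lower as reported. These numbers were 303 and 328 with a pseudocount of 0.1 FPKM, 64 and 36 with one of 5 FPKM, 76 and 41 among genes averaging 5 FPKM or more, and 65 and 49 at 2-fold. Among 83 alternative values of genes and lists, 76 stayed within their counting bounds, 7 moved and 0 changed the sign of a called value. A filter leaves the value of a single gene as it was, so part of the 76 was fixed in advance. The only called values were those of NLRC4 and NLRP12. A pseudocount or filter cannot change their sign, and the rescalings were far too small to do so, so the count of 0 is no support. The median of the accessory list, -0.02, became 0.16 without a filter and at a common total and 0.19 when scaled by the median of ratios, where CD180, with a mean just under 1 FPKM, also passed. That scaling raised AG values by the factor 1.025. It also brought the medians of the negative regulators and of the nucleic acid sensing genes from -0.03 to 0.0075 and 0.0014. Depth limits TLR5, TLR7, TLR8, NLRP9 and NLRP14, which had at most 6 fragments in a library. No paired analysis was possible because each group has 1 library.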

Other observations

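Several partners of the sensors had a value in AG only and were not compared. IKBKE, a kinase that activates interferon regulatory factors, had 14.3 FPKM from 808 fragments, and DPP9, a protease that holds NLRP1 and CARD8 inactive, had 11.5 FPKM from 1415 fragments. IL1A had 0.133 FPKM from 4 fragments and CARD17 had 0.164 FPKM from 3 fragments.

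Some relatives below a mean of 1 FPKM had a counting interval that left out 1. They were chosen for this after their values were seen. Of the 9813 genes with a value in both libraries and recovered fragments, 10.7% had an interval above 1 and 14.2% one below. The intervals of SARM1, DUSP1, BIRC3 and CASP5, also under that mean, included 1. CIITA, the NLR family member that drives MHC class II transcription, had 0.198 FPKM in AG and 0.302 FPKM in Control, a ratio of 0.654 (0.468 to 0.906). IRF7, a regulator of interferon genes downstream of endosomal receptors, had 0.747 FPKM in AG and 1.23 FPKM in Control, a ratio of 0.610 (0.373 to 0.978). P2RX7, the ATP-gated channel that triggers the NLRP3 inflammasome, had 0.777 FPKM in AG and 0.477 FPKM in Control, a ratio of 1.63 (1.09 to 2.45).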
